A study of Mus musculus with 4 samples.

Results

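The genes of cyclic nucleotide signalling were described across cell classes of the deep cerebellar nuclei of the mouse, through which the cerebellum sends its output. A gene was a member if its symbol was that of a phosphodiesterase (Pde), an adenylyl or guanylyl cyclase (Adcy, Gucy), a subunit of protein kinase A (Prkar, Prkac), a protein kinase G (Prkg1, Prkg2) or a Rap guanine nucleotide exchange factor (Rapgef), and if it had a count in each of the 4 libraries. Of the 15632 genes in the deposited tables, 50 matched the symbols and 43 were members: 16 phosphodiesterases, 9 adenylyl cyclases, 3 guanylyl cyclase subunits, 6 protein kinase A subunits, 2 protein kinases G and 7 entries named Rapgef. The symbol rule also took in Rapgef4os1, an RNA transcribed against Rapgef4, and Pde6d, which encodes a prenyl-binding protein and no phosphodiesterase. Pde4c, Adcy4, Pde1b, Pde6a, Pde6c, Gucy2f and Gucy2g matched the symbols but were listed at 0 in at least 1 library.

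Single nuclei were profiled on the 10x Genomics platform from C57BL/6J mice of 2 Cre driver lines, with 2 libraries a line; by its title, the study was about satiation and excitatory neurons of the tissue. The Ucn3-Cre parent was Tg[Ucn3-cre]KF31Gsat/Mmucd, in which Cre is driven by urocortin 3 sequence; replicate 1 was female and replicate 2 male, both 3 months old. The vGluT2-Cre parent was Tg(Slc17a6-icre)1Oki, in which Cre is driven by sequence of the vesicular glutamate transporter Slc17a6; replicate 1 was male and 2 months old, and replicate 2 female and 2.5 months old. The other parent of all 4 libraries was Ai32, whose Rosa26 allele Gt(ROSA)26Sortm32 makes the channelrhodopsin COP4*H134R fused to EYFP from the CAG promoter where Cre has acted. Every library thus carried a Cre transgene and the reporter, and none served as a control without them. Nuclei of Ucn3-Cre replicate 1 were isolated on an iodixanol gradient and those of the other libraries through a sucrose cushion. The labels give no treatment and do not say how many animals a library holds, so p-values measure the spread between these libraries only.

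Cyclic AMP and cyclic GMP are second messengers. Adenylyl cyclases make cyclic AMP under the control of G proteins and, for some forms, of calcium, and soluble guanylyl cyclase, a pair of one alpha and one beta subunit, makes cyclic GMP when it binds nitric oxide. Phosphodiesterases break the messengers down, and their families differ in which nucleotide they cleave and in what activates them. The signal is read by protein kinase A, by protein kinase G, by cyclic nucleotide-gated channels and by the exchange factors Epac1 (Rapgef3) and Epac2 (Rapgef4), which activate the small G protein Rap. In vessels, the nitric oxide and cyclic GMP branch relaxes smooth muscle.

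The libraries held 4291 to 6587 nuclei and 9096357 to 19125488 counts each, and the members took 0.737 to 0.808% of the counts. After removal of likely doublets 20547 nuclei remained. They were clustered without the members and other pathway genes, and clusters were named from marker genes. There were 9 classes with at least 20 nuclei in every library: glutamatergic neuron-like nuclei (458), inhibitory neuron-like nuclei of the deep nuclei or Golgi type (1007), and nuclei like molecular layer interneurons (245), astrocytes (5035), oligodendrocytes (7156), oligodendrocyte precursors (693), microglia and macrophages (764), endothelial cells (718) and mural cells (184), which are pericytes and vascular smooth muscle cells. The names are written below without "-like". A further 4035 nuclei in 2 oligodendrocyte-scored clusters, 173 nuclei in sub-clusters with at least 2 more markers of another class than of their own among their 10 leading genes, and 79 fibroblast-like nuclei stayed out of the tests. Every marker in the tables was highest in its own class for 5 of the classes; the exceptions were Slc32a1, Gad1 and Pax2 for inhibitory neurons, Lypd6 for molecular layer interneurons, Cspg4 for precursors, and Rgs5, Acta2 and Myh11 for mural cells. How much of the mural class was pericytes and how much smooth muscle was not tested. The median nucleus held 9422 counts in the glutamatergic and 1426 in the mural class. Log2 levels of vGluT2-Cre replicate 1 correlated across 11446 genes at 0.963 to 0.969 with the other libraries, which correlated at 0.983 to 0.994 with one another. The libraries shared 41 cell barcodes.

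Levels are CPM, the share of the summed counts of a class in a library scaled to 1000000 counts, given as mean ± SD over 4 libraries. Single values are in the order Ucn3-Cre replicates 1 and 2, then vGluT2-Cre replicates 1 and 2. CPM takes no account of gene length, so levels are compared within a gene only. In such sums, fewer expressing cells and less RNA per cell cannot be told apart. Differences were tested with edgeR's quasi-likelihood test, with Benjamini-Hochberg adjustment across every gene in the test, and called at an adjusted p under 0.05.

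A pair of short sequences is shown first, to set side by side the full letters of the cyclic AMP response element, the site of CREB, a transcription factor that protein kinase A phosphorylates, and its core letters alone, each at a gene described below.
Gucy1b1, chr3:82074712-82074961: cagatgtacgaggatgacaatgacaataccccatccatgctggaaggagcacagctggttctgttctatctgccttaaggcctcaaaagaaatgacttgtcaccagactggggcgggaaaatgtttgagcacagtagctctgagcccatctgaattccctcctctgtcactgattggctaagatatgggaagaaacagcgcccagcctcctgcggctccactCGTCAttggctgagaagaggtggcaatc
Prkar1a, chr11:109650889-109650918: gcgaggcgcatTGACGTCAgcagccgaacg
The first is the 250 bases before the start of Gucy1b1, the beta subunit of soluble guanylyl cyclase, on the minus strand and read along the gene. Capitals mark CGTCA, the reverse complement of the core letters TGACG, 28 bases before the start. The second is 30 bases on the plus strand at Prkar1a, a regulatory subunit of protein kinase A, and capitals mark the full element TGACGTCA, which begins 49 bases before 1 of the annotated starts. Both are RefSeq sequence on GRCm38.p6. Searched on both strands of the 250 bases before each start, TGACGTCA was in 1.55% of 32851 windows, and in 1 of 70 windows of the 35 members that the table lists, that of Prkar1a. TGACG, which every full element contains, was in 17.8% of all windows and in 16 of the 70 (22.9%). A match is a description of letters and not a site.

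Nearly all genes differed between classes, and so did the members. The filter on low counts passed 42 of the 43 members, all but Pde11a, and all 42 were called across the 9 classes, beside 95.7% of the 11952 genes tested. The classes were drawn from other genes of the same nuclei, so p-values between classes, and between sub-clusters below, are too small, and the patterns of single genes are given instead. The highest class lay above the next in every library, with no overlap, for 22 of 43 members, against 32.4% of all genes tested. By mean level, 14 members were highest in mural cells, where 10.9% of all genes had their maximum. Of the other classes, astrocytes (8.6% of all genes), glutamatergic neurons (9.54%), inhibitory neurons (7.29%), microglia (21.3%) and oligodendrocytes (9.03%) held the maximum of 4 members each. Endothelial cells (18%), molecular layer interneurons (9.66%) and precursors (5.69%) held 3 each.

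**Figure D1:**
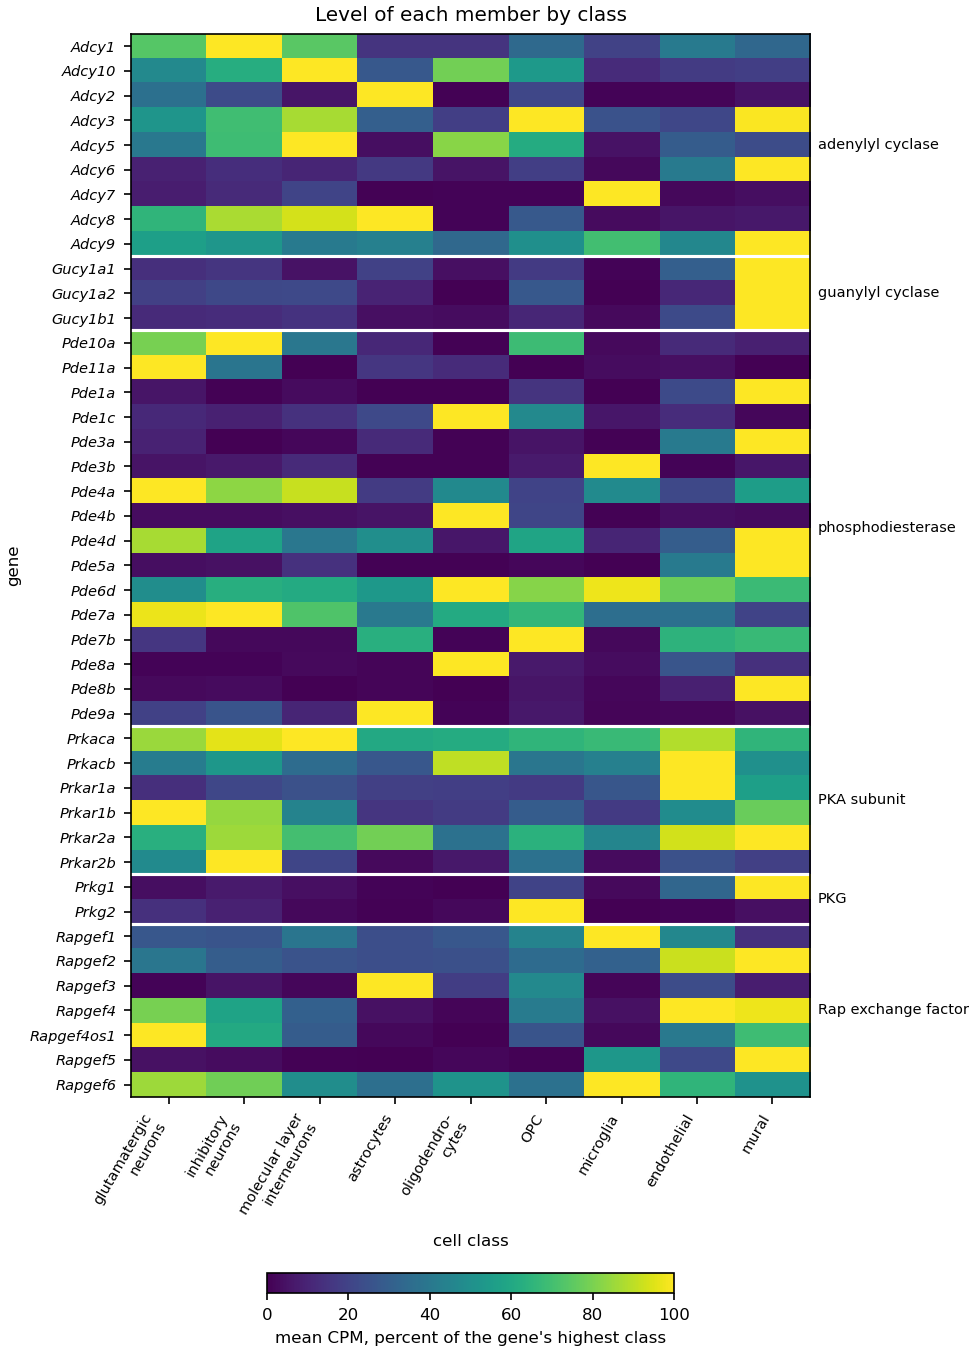
Mean level (CPM, n = 4 libraries) of each of the 43 members in each of the 9 classes, as a percentage of the gene's own highest class; genes are in rows grouped by family and classes in columns. The maxima of 14 genes, among them all 3 guanylyl cyclase subunits and Prkg1, lie in the mural column.

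Of the adenylyl cyclases, Adcy2 and Adcy8 were highest in astrocytes and Adcy7 in microglia. Adcy2, a cyclase stimulated by G protein beta-gamma subunits, measured 278, 299, 279 and 309.7 CPM in astrocytes. All 4 values lay above those of glutamatergic neurons, the next class, at 108 ± 15.3 CPM. Adcy2 was higher in astrocytes than the mean of the other classes by 4.43 on the log2 scale (SE 0.10, adjusted p = 2.62e-43). Adcy8, which calcium and calmodulin stimulate, was higher in astrocytes by 3.02 (SE 0.09), at 382 ± 48.9 CPM. Its astrocyte values overlapped those of molecular layer interneurons (358 ± 26.1 CPM) and inhibitory neurons (334 ± 14.4 CPM). In oligodendrocytes Adcy2 was at 1.93 ± 0.924 CPM and Adcy8 at 4.20 ± 2.04 CPM.

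Adcy7, a cyclase known from blood and immune cells, measured 236, 308, 289.6 and 237 CPM in microglia and macrophages. The next class, molecular layer interneurons, lay below every one of these, at 29.9, 109, 42.2 and 40.4 CPM, and its second value stood apart. The microglial excess over the mean of the other classes was 4.91 on the log2 scale (SE 0.16, adjusted p = 3.59e-34). Adcy1, another cyclase that calcium and calmodulin stimulate, was highest in inhibitory neurons (119 ± 8.62 CPM) and overlapped molecular layer interneurons (88.4 ± 24.7 CPM). Adcy5, known from the striatum, was highest in molecular layer interneurons (144 ± 34.4 CPM), and in oligodendrocytes (118 ± 13.2 CPM) it was higher than the mean of the other classes by 1.93 (SE 0.11). Of the other cyclases, Adcy10, the soluble bicarbonate-sensitive form, had its maximum in molecular layer interneurons, Adcy3 in precursors, and Adcy6 and Adcy9 in mural cells, each overlapping the next class.

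All 3 subunits of soluble guanylyl cyclase were highest in mural cells, with no overlap with the next class. Gucy1b1 (chr3:82032006-82074689, minus strand, GRCm38), the beta subunit whose window is shown above, measured 475, 566, 790.5 and 663 CPM in mural cells and 139 ± 17.5 CPM in endothelial cells. Its neighbour Gucy1a1 (chr3:82092427-82145789, minus strand), an alpha subunit, measured 191, 303, 121 and 283 CPM in mural and 68.3 ± 7.05 CPM in endothelial cells. Gucy1a2, the other alpha subunit, measured 662, 796, 953 and 1151 CPM in mural cells and 246 ± 25.2 CPM in oligodendrocyte precursors. Each mural value exceeded every value of the next class for all 3 genes. Microglia had the lowest levels of the alpha subunits, Gucy1a1 at 2.13 ± 1.80 CPM and Gucy1a2 listed at 0 in all 4 libraries. In inhibitory neurons Gucy1b1 was at 79.1 ± 5.48 CPM, Gucy1a1 at 34.3 ± 6.26 CPM and Gucy1a2 at 194 ± 11.9 CPM.

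Among the phosphodiesterases, Pde4b and Pde8a were highest in oligodendrocytes. Pde4b (chr4:102087543-102607259, plus strand), which cleaves cyclic AMP, measured 10111, 8363, 8779.6 and 8932 CPM in oligodendrocytes. Precursors came next with 1959.5, 1639, 2115 and 1912 CPM, well below every oligodendrocyte value, and the other classes had means of 68.5 (microglia) to 463 CPM (astrocytes). Pde4b was higher in oligodendrocytes by 5.01 on the log2 scale (SE 0.09, adjusted p = 7.37e-48).

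Pde8a (chr7:81213596-81334533, plus strand), a cyclic AMP phosphodiesterase of high affinity, measured 854, 859, 797 and 763 CPM in oligodendrocytes. The values were close together and above all those of endothelial cells, the next class, at 216 ± 79.7 CPM. It was higher in oligodendrocytes than the mean of the other classes by 5.03 (SE 0.08). Pde1c, which calcium and calmodulin activate, was highest in oligodendrocytes (191 ± 15.2 CPM) and next in precursors (90.1 ± 13.4 CPM), without overlap. Pde7b, which cleaves cyclic AMP, had its maximum in precursors (786 ± 110.4 CPM), overlapping mural cells (529.9 ± 124 CPM), and was at 6.85 ± 2.74 CPM in oligodendrocytes. Precursors and oligodendrocytes thus lay in opposite order for Pde4b and Pde7b, with no overlap for either gene.

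Pde3b (chr7:114415281-114539251, plus strand), a phosphodiesterase that cyclic GMP inhibits, was highest in microglia, at 1330.0, 1131, 1541 and 1327 CPM. The next class, molecular layer interneurons, was far below at 159 ± 25.2 CPM, and the microglial excess was 4.79 on the log2 scale (SE 0.09, adjusted p = 3.19e-46). Its paralogue Pde3a was highest in the vessel wall, with 703, 519, 393 and 361 CPM in mural and 171, 77.5, 407 and 161 CPM in endothelial cells. The vascular classes overlapped for Pde3a at the endothelial value of vGluT2-Cre replicate 1, the highest of the 4.

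Pde8b (chr13:95024454-95250336, minus strand), the paralogue of Pde8a, measured 4067, 2895, 3924 and 3402 CPM in mural cells. Endothelial cells followed at 316 ± 96.1 CPM, a ratio of means of 11.3 that was the largest between first and second class among the 43 members. Pde5a, which cleaves cyclic GMP and is the target of sildenafil, measured 448, 305, 199 and 294 CPM in mural and 127 ± 9.87 CPM in endothelial cells, without overlap. Pde1a, a calcium-activated form, had the same order at 216 ± 90.9 and 48.1 ± 12.6 CPM, and was listed at 0 in astrocytes, oligodendrocytes and microglia. Each of the vascular classes held marker RNA of the other: Flt1 was at 4473 CPM in endothelial and 277 CPM in mural cells, and Pdgfrb at 2463 CPM in mural and 295 CPM in endothelial cells. Its part in the vascular levels was not tested.

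Pde9a, which cleaves cyclic GMP, measured 125, 95.8, 91.2 and 99.99 CPM in astrocytes and 26.9 ± 4.57 CPM in inhibitory neurons, the next class. Pde10a, which cleaves both nucleotides and is known from the striatum, was highest in inhibitory neurons (608 ± 66.7 CPM), followed by glutamatergic neurons (484 ± 69.4 CPM) and precursors (417 ± 28.5 CPM), and was at 2.48 ± 2.49 CPM in oligodendrocytes. Pde4d, which cleaves cyclic AMP, ran from 152 ± 13.5 CPM in oligodendrocytes to 2504 ± 639 CPM in mural cells, whose values overlapped those of glutamatergic neurons (2176 ± 169 CPM). Pde4a had its maximum in glutamatergic neurons (114 ± 6.16 CPM) and Pde7a in inhibitory neurons (148 ± 18.6 CPM). Class means of Pde6d spanned 29 to 59.2 CPM.

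**Figure D2:**
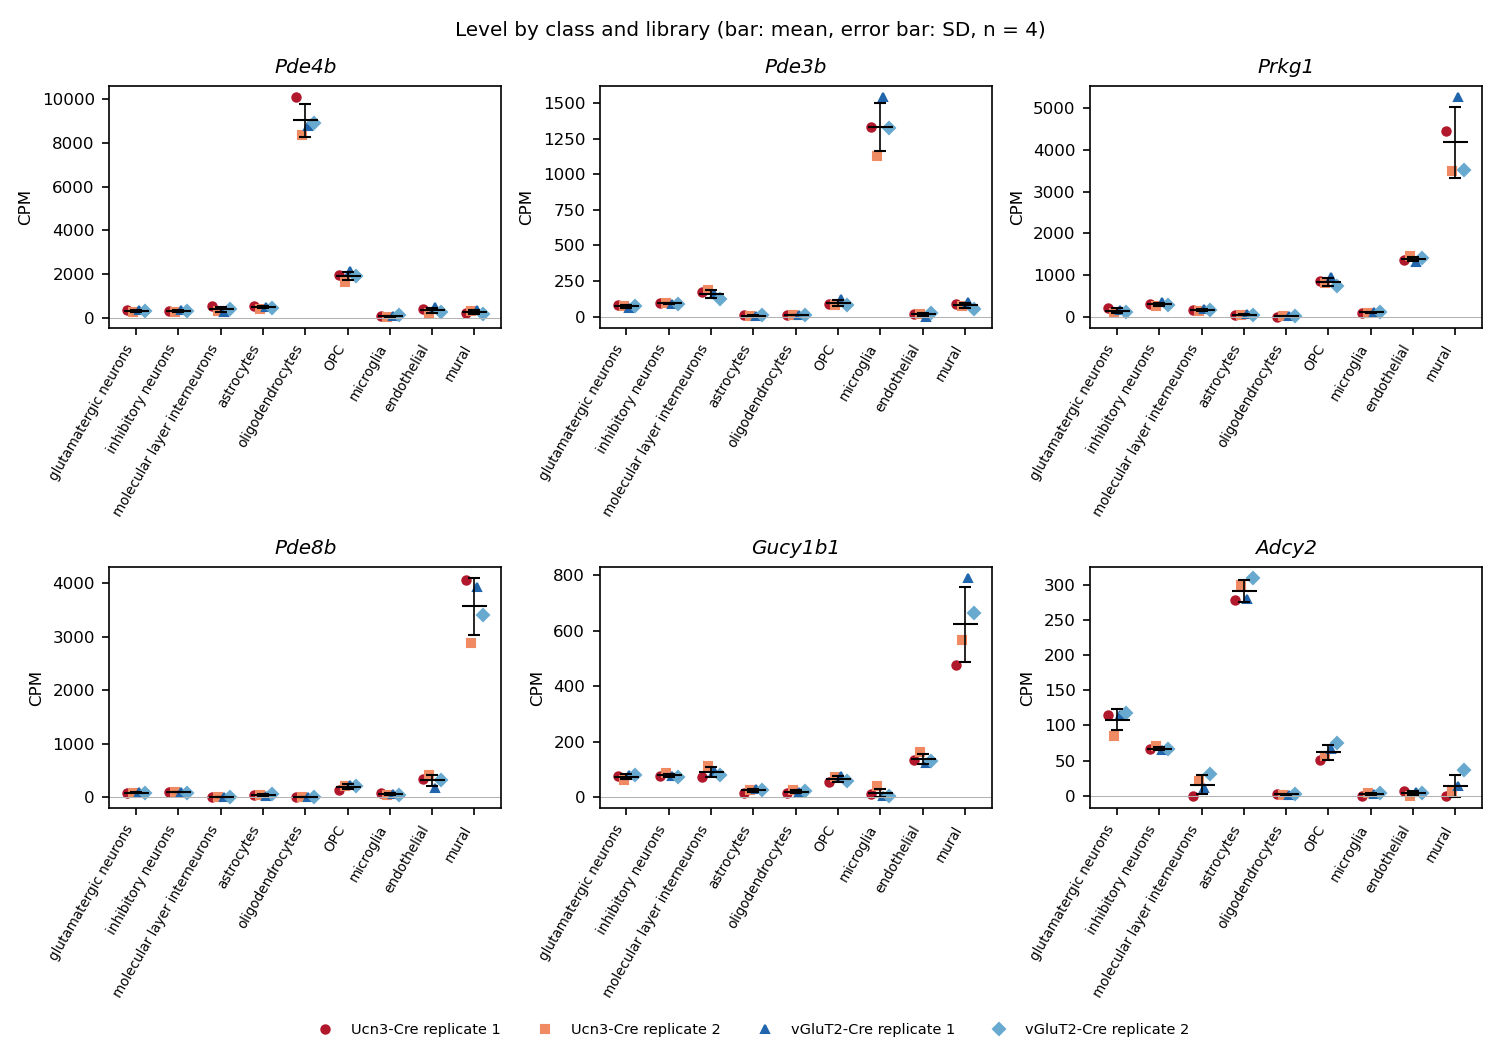
Level (CPM, linear axis) of Pde4b, Pde3b, Prkg1, Pde8b, Gucy1b1 and Adcy2 in each class; points are the 4 libraries and the bar and error bar are mean and SD. Pde4b reaches 8363 to 10111 CPM in oligodendrocytes, Pde3b 1131 to 1541 CPM in microglia, and Prkg1, Pde8b and Gucy1b1 are highest in all 4 mural sums.

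Of the kinases that read the signal, Prkg1 (chr19:30564489-31765033, minus strand), the protein kinase G of vascular smooth muscle, measured 4442, 3486, 5265 and 3517 CPM in mural cells. Endothelial cells had 1383 ± 53 CPM and precursors 844 ± 94.8 CPM, and these 3 classes did not overlap. In oligodendrocytes Prkg1 was at 9.66 ± 2.39 CPM. Prkg2, the membrane-bound form, was highest in precursors, at 117, 148, 135 and 107 CPM, against 17.6 ± 3.69 CPM in glutamatergic neurons, the next class. It was higher in precursors by 5.38 on the log2 scale (SE 0.22, adjusted p = 2.48e-29).

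Of the subunits of protein kinase A, class means of the catalytic subunit Prkaca spanned 45.1 to 74.6 CPM. Prkacb, the other catalytic subunit, was highest in endothelial cells (184 ± 14.9 CPM) and overlapped oligodendrocytes (166 ± 18 CPM). The regulatory subunit Prkar2b was highest in neurons, with 103, 76.6, 93.4 and 121 CPM in inhibitory neurons against 47.1 ± 7.11 CPM in glutamatergic neurons and 2.68 ± 1.19 CPM in astrocytes. It was higher in inhibitory neurons than the mean of the other classes by 2.88 (SE 0.16). Prkar1a, the gene with the full response element shown above, was highest in endothelial cells (277 ± 63.9 CPM), Prkar1b in glutamatergic neurons (130.1 ± 17.2 CPM) and Prkar2a in mural cells (83.8 ± 39.4 CPM), each overlapping the next class.

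Of the Rap exchange factors, Rapgef3 (Epac1) and Rapgef4 (Epac2) had different classes. Rapgef3 measured 494, 439.6, 329 and 444 CPM in astrocytes, above precursors at 201 ± 47.7 CPM, and was at 4.67 ± 3.53 CPM in glutamatergic neurons. Rapgef4 was at 525 ± 30.8 CPM in endothelial cells, 510.3 ± 117 CPM in mural cells, 417 ± 19.5 CPM in glutamatergic neurons and 23.8 ± 4.10 CPM in astrocytes. Slc1a2, an astrocyte gene, was at 2372 CPM in astrocytes and 382 CPM in precursors, and the part of astrocyte RNA in the precursor level of Rapgef3 was not tested. Rapgef4os1 (chr2:72097603-72148796, minus strand) lies within Rapgef4 (chr2:71981240-72257474, plus strand), and reads of the pair cannot be told apart unless the counting used strand, which is not given in the sources used here.

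Rapgef5, an exchange factor other than the Epacs, was highest in mural cells (2607, 1699, 1901 and 2141 CPM) and next in microglia (1107 ± 84.6 CPM), without overlap. Rapgef1, which links adaptor proteins to Rap, was highest in microglia at 454, 497, 293 and 453 CPM, against 196 ± 61.5 CPM in endothelial cells. Rapgef2 and Rapgef6 were found in all classes, with means of 159.7 to 660.3 and 122 to 333 CPM.

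Counted by class against the mean of the other classes, the members gave the counts below, which are set beside the share of all genes called and are a description with no test. In mural cells 20 of 42 were called higher, against 9.76% of genes, and 5 lower, against 10.2%. In precursors 24 were higher, against 23.4%, and 6 lower, against 12%, with a median log2 difference of 0.65 against 0.01 for all genes. In microglia 5 were higher, against 26.3%, and 30 lower, against 27.1%, with a median of -1.85 against -0.11. In oligodendrocytes 10 were higher, against 31.6%, and 26 lower, against 26.4%, with a median of -1.18 against 0.01. Pde3b and Adcy7 were among the members called higher in microglia, and Pde4b and Pde8a among those called higher in oligodendrocytes.

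In astrocytes 11 members were higher, against 33.8% of genes, and 24 lower, against 25%. In endothelial cells 21 were higher, against 33.3%, and 15 lower, against 26.5%. In glutamatergic neurons 24 were higher, against 35.7%, and 8 lower, against 26.6%. In inhibitory neurons 22 were higher, against 33.1%, and 8 lower, against 23.8%. In molecular layer interneurons 12 were higher, against 15.5%, and 10 lower, against 9.3%. The other pathway genes, 52 in the tables of a list of 64, gave 9 higher and 4 lower of 46 tested in mural cells, and 12 higher and 18 lower in oligodendrocytes. Mrvi1, a protein kinase G substrate of smooth muscle, was at 368 ± 15.8 CPM in mural and 89.3 ± 31.2 CPM in endothelial cells. Nos3, the endothelial nitric oxide synthase, was at 177 ± 16.8 CPM in endothelial cells and 10.5 ± 15.1 CPM in mural cells. Nos1, the neuronal synthase, was at 181 ± 69.8 CPM in molecular layer interneurons and 47.7 ± 5.56 CPM in inhibitory neurons.

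Glutamatergic neurons, the kind the study was about, were compared with inhibitory neurons of the same libraries, with the library as a block. Of 42 members tested, 14 were higher in glutamatergic neurons, 12 were lower and 16 did not pass. Of all 10657 genes, 33.6% were called, 17.3% higher and 16.2% lower, and the median log2 difference was -0.01, against -0.10 for the members. By family, 6 of 15 phosphodiesterases and 5 of 7 Rapgef entries were higher. Of 9 adenylyl cyclases 5 were lower, as were 3 of 6 protein kinase A subunits, and none of the 3 guanylyl cyclase subunits passed. The Rapgef count holds both Rapgef4 and Rapgef4os1, whose reads cannot be told apart unless the counting used strand. Without the library block 13 of 42 members were called, beside 1728 of 10657 genes, so calls fell over all genes too.

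Pde3a (chr6:141249269-141507448, plus strand) differed the most. It measured 39.3, 61, 42.9 and 46.3 CPM in glutamatergic and 1.68, 2.11, 1.31 and 1.88 CPM in inhibitory neurons. The groups lay far apart in every library, although the inhibitory sums held only 9.39 counts over the 4 libraries, with a log2 difference of 4.74 (SE 0.27, adjusted p = 3.45e-16). Pde7b measured 148, 109, 116 and 127 CPM in glutamatergic and 28.1, 15.1, 12.7 and 14.2 CPM in inhibitory neurons, again without overlap, a difference of 3.05 (SE 0.14, adjusted p = 1.47e-18). Pde11a, which cleaves both nucleotides, was higher by 1.37 (SE 0.29, adjusted p = 3.37e-04), at 13.3 ± 4.13 against 5.17 ± 2.47 CPM.

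Smaller excesses in glutamatergic neurons, in 4 of 4 libraries each, were those of Rapgef4os1 at 0.88 (SE 0.11), Adcy2 at 0.76 (SE 0.11), Pde4d at 0.67 (SE 0.06), Rapgef4 at 0.54 (SE 0.07) and Rapgef5 at 0.51 (SE 0.11). Pde4d measured 2232, 2067, 2389 and 2017 CPM in glutamatergic and 1516, 1471, 1375 and 1439 CPM in inhibitory neurons, so the groups did not overlap. Prkg2 was higher by 0.80 (SE 0.24, adjusted p = 0.0106) in 3 of 4 libraries, and without vGluT2-Cre replicate 1 its adjusted p was 0.147. Pde4b was called higher by 0.19 (SE 0.07, adjusted p = 0.0364). Leaving out Ucn3-Cre replicate 1, Ucn3-Cre replicate 2 or vGluT2-Cre replicate 2 ended the call (adjusted p = 0.176, 0.095 and 0.088). Including the sub-clusters set aside also ended it, with a difference of -0.0733 (adjusted p = 0.576). Leaving out the 3 sub-clusters with a marker of another class (below) gave 0.744 (adjusted p = 2.76e-08, edgeR). Over 16 settings the call of Pde4b was lost in 7 with the sign kept, and the sign changed in 1.

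Inhibitory neurons had more Prkg1, at 318, 255, 345 and 291 CPM against 212, 103, 171 and 115 CPM in glutamatergic neurons. The groups did not overlap, and the log2 difference, glutamatergic minus inhibitory, was -0.99 (SE 0.09, adjusted p = 5.01e-11). Prkar2b measured 37.8, 55, 47 and 48.6 CPM in glutamatergic and 103, 76.6, 93.4 and 121 CPM in inhibitory neurons, also without overlap, a difference of -0.93 (SE 0.13, adjusted p = 5.14e-07). Adcy5 was at 57.4 ± 6.68 against 99 ± 12.3 CPM, a difference of -0.67 (SE 0.12). Prkar1a was at 37.6 ± 10.2 against 58.7 ± 13.5 CPM (-0.55, SE 0.14), and Adcy1 at 87.5 ± 8.02 against 119 ± 8.62 CPM (-0.36, SE 0.10).

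Adcy8, Adcy10, Pde10a and Prkacb were lower in all 4 libraries, with log2 differences of -0.32, -0.34, -0.25 and -0.26. The adjusted p was 0.0422 for Adcy10 and 0.0455 for Prkacb. The call of Prkacb was lost without any 1 of the libraries and that of Adcy10 without any but vGluT2-Cre replicate 2, with adjusted p up to 0.141 and 0.196, while the log2 differences were -0.29 to -0.247 and -0.438 to -0.263. The call of Prkar1a was lost without Ucn3-Cre replicate 2 (adjusted p = 0.0726) and that of Pde10a without vGluT2-Cre replicate 1 (adjusted p = 0.0874). Leaving out the 3 sub-clusters with a marker of another class (below) ended the calls of Adcy8 (log2 difference -0.0499, adjusted p = 0.704), Pde10a (-0.15, 0.166) and Prkacb (-0.286, 0.0658).

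Rapgef3 had the largest deficit in glutamatergic neurons, at 4.67 ± 3.53 against 22.1 ± 10.2 CPM, a log2 difference of -2.42 (SE 0.34, adjusted p = 5.75e-07). The astrocyte gene Slc1a2 was also lower by its values, 11 ± 3.18 against 35 ± 10.4 CPM, and its part in the difference of Rapgef3 was not tested. Among the inhibitory sub-clusters (below) mean Rapgef3 ran from 2.09 ± 2.45 CPM (Sv2c) to 36.4 ± 11.9 CPM (Chsy3). The Sv2c mean was thus under the glutamatergic mean of 4.67 CPM. Among the glutamatergic sub-clusters the means ran from 0 CPM (Prox1) to 19.1 ± 38.3 CPM (Zfhx3). Gucy1a1, Gucy1a2 and Gucy1b1 did not pass, with log2 differences of -0.09, -0.10 and 0.00 (SE 0.16, 0.08 and 0.11). Pde1a was not tested; it was at 9.51, 8.82, 26 and 3.09 CPM in glutamatergic and 2.62, 0, 1.63 and 1.89 CPM in inhibitory neurons.

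**Figure D3:**
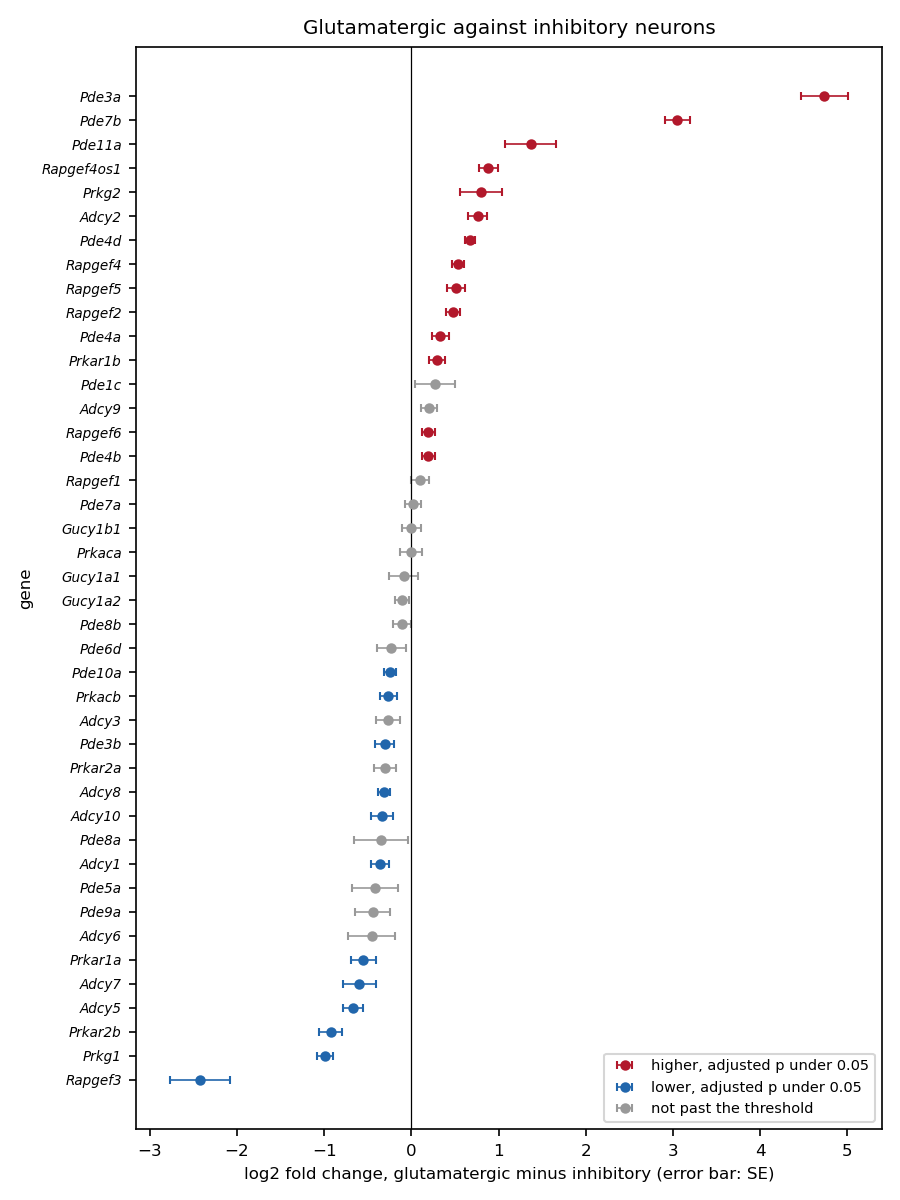
Log2 fold change of each of 42 tested members between glutamatergic and inhibitory neurons (point) with its SE (error bar); colour marks members past an adjusted p of 0.05 (edgeR). Pde3a at 4.74 and Pde7b at 3.05 lie at one end and Rapgef3 at -2.42 at the other.

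Of the other pathway genes, 6 of 44 tested were higher in glutamatergic neurons and 11 lower. Pkib, an inhibitor of the catalytic subunit of protein kinase A, was higher (29.3 ± 9.95 against 7.73 ± 1.41 CPM, log2 difference 1.95, SE 0.24), and so was the anchoring protein Akap13 (79.8 ± 8.53 against 34.2 ± 7.88 CPM, log2 difference 1.37, SE 0.13). Nos1 was lower (9.99 ± 8.69 against 47.7 ± 5.56 CPM, log2 difference -1.97, SE 0.26).

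Inhibitory neurons divided into 5 sub-clusters of 127 to 265 nuclei, called here by leading genes: Cdh9, Foxp2, Chsy3, Dab1 with Nts, and Sv2c with Slc6a5, the glycine transporter. The Dab1 sub-cluster had Kit, a marker of molecular layer interneurons, among its 10 leading genes, so its name is in doubt. Only the Sv2c sub-cluster had a marker of its own class among them, Slc6a5. Of 33 members tested, 23 were called across them, against 39.8% of 6865 genes. Of the other pathway genes, 15 of 32 were called. Without the Dab1 sub-cluster 17 of 32 members were called. The genes tested changed in that fit, so the share of 39.8% does not apply to it, and the count is no result about the members. Prkg1, Prkar2b, Adcy1 and Gucy1a2 were high in the Cdh9, Foxp2 and Chsy3 sub-clusters, and Pde4b, Adcy2 and Adcy8 in the Dab1 and Sv2c sub-clusters. For these 7 of 33 members the libraries of the first 3 sub-clusters did not overlap those of the other 2, as was so for 10.6% of the genes tested. This split was chosen after the values were seen, and without the Dab1 sub-cluster its second side is the Sv2c sub-cluster alone.

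Prkg1 was at 426 ± 92.9, 487 ± 68.9 and 491 ± 94 CPM in the Cdh9, Foxp2 and Chsy3 sub-clusters and at 24.5 ± 13 and 43.2 ± 19.8 CPM in the Dab1 and Sv2c sub-clusters (adjusted p = 3.57e-40). Pde4b ran the other way, at 34.8 ± 8.50, 26.5 ± 14.4 and 53.7 ± 25 CPM and then 475 ± 88.4 and 962 ± 171 CPM (adjusted p = 3.56e-49). In the Sv2c sub-cluster Pde4b measured 953, 724, 1069 and 1101 CPM, above every value of the other inhibitory sub-clusters.

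Prkar2b measured 167, 158, 199 and 262 CPM in the Foxp2 sub-cluster, where it was highest, and 9.29, 21.9, 24.7 and 7.79 CPM in the Dab1 sub-cluster, where it was lowest (adjusted p = 5.13e-24). Adcy1 was at 187 ± 25.1 CPM in the Foxp2 and 43.2 ± 28.9 CPM in the Dab1 sub-cluster. Adcy2 was at 9.64 ± 6.31 CPM in the Foxp2 and 162 ± 28 CPM in the Sv2c sub-cluster. The cyclases thus lay on different sides of the split, Adcy1 with Prkg1 and Adcy2 and Adcy8 with Pde4b. Pde10a was highest in the Dab1 sub-cluster (845 ± 175 CPM) and lowest in the Chsy3 sub-cluster (441 ± 44.3 CPM), with adjusted p = 7.83e-14. Pde8b, highest in mural cells among the classes, ran among these neurons from 50.9 ± 25.6 CPM (Dab1) to 151 ± 34.8 CPM (Chsy3), with adjusted p = 1.45e-09. Pde9a was at 44.5 ± 20.8 CPM in the Chsy3 sub-cluster, where it was highest, and at 11.6 ± 6.38 CPM in the Dab1 sub-cluster (adjusted p = 1.11e-06). The call of Adcy7 (adjusted p = 0.00324) was lost without vGluT2-Cre replicate 1 (0.0769) and with finer sub-clusters (0.102).

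**Figure D4:**
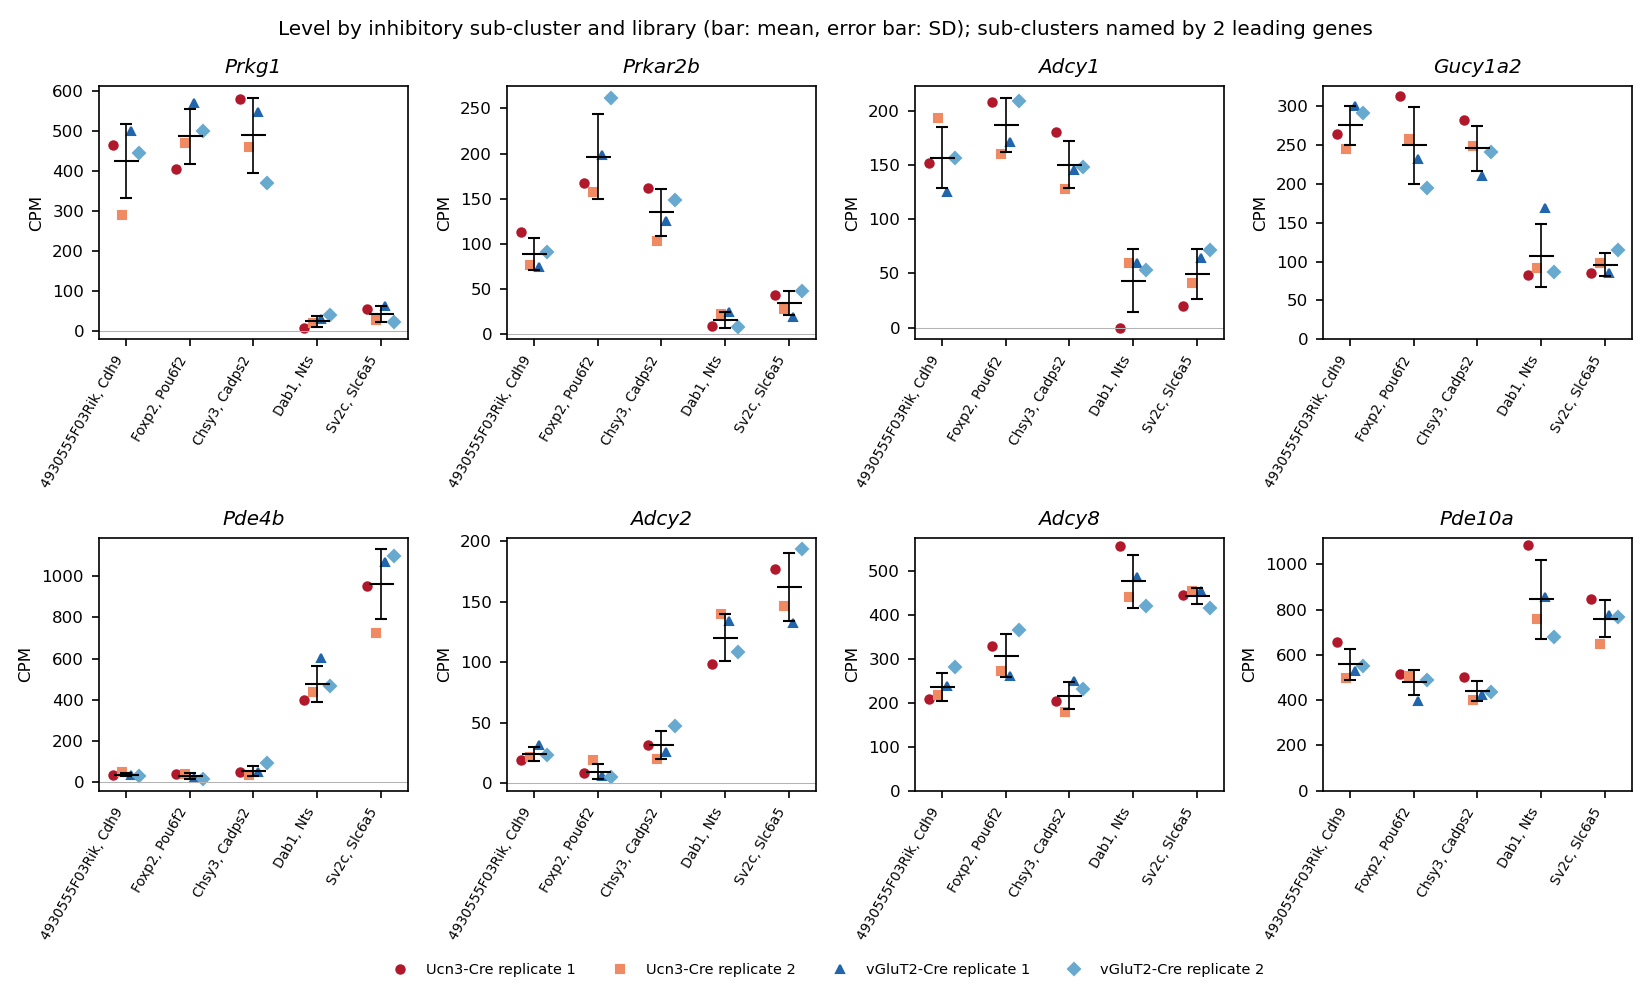
Level (CPM, linear axis) of 8 members in the 5 inhibitory sub-clusters, each labelled by 2 leading genes; points are the 4 libraries and the bar and error bar are mean and SD. Prkg1 lies at 291 to 580.1 CPM in the first 3 sub-clusters and at 8.85 to 64.1 CPM in the last 2, and Pde4b has the opposite order.

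Glutamatergic neurons divided into 7 sub-clusters of 31 to 123 nuclei, led by Hs6st3, Zfhx3, Zfp804b, Gm12682 with Crhr1, Kynu, Prox1 and Cpne4. The Prox1 sub-cluster had 5 or more nuclei in 2 libraries only. The Zfhx3 sub-cluster held the vesicular GABA transporter Slc32a1 at 179 CPM beside Slc17a6 at 114 CPM, so its glutamatergic name is in doubt. The Zfp804b and Prox1 sub-clusters each had 1 marker of another class (unipolar brush cells and molecular layer interneurons) among the 10 leading genes. None of the glutamatergic sub-clusters had a marker of their own class there. Of 34 members tested, 12 were called across the sub-clusters, against 22.4% of 5927 genes, and 5 of 30 other pathway genes were. Without the Zfhx3 sub-cluster 10 of 37 were called, and without the Zfp804b and Prox1 sub-clusters 9 of 27. The genes tested changed in these fits, so the share of 22.4% does not apply to them, and the counts are no result about the members.

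Pde1a was concentrated in the Kynu sub-cluster, where it is among the leading genes, at 89.1, 87.6, 143 and 82.3 CPM. The Cpne4 sub-cluster had 23.7, 34.9, 57.6 and 0 CPM, below all of these, and the other means were 0 to 6.20 CPM (adjusted p = 2.93e-08). With finer sub-clusters, Pde1a was the first leading gene of a separate sub-cluster of 14 nuclei. It was not among the leading genes of the finer sub-cluster led by Kynu, of 33 nuclei. Pde1a may thus mark only a part of the Kynu sub-cluster, which was not tested. Prkg1 was at 395 ± 76.7 CPM in the Zfhx3 and 387 ± 148 CPM in the Kynu sub-cluster, and at 27.5 ± 22.2 CPM in the Crhr1 sub-cluster, without overlap (adjusted p = 2.89e-13). Adcy2 was lowest in the Zfp804b sub-cluster at 37.9, 34.2, 14 and 29.1 CPM, against 166 ± 28.9 CPM in the Hs6st3 sub-cluster (adjusted p = 8.19e-10).

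Pde3a, the member that most separated glutamatergic from inhibitory neurons, was uneven among the glutamatergic sub-clusters (adjusted p = 6.89e-06). It was listed at 0 in all 4 libraries of the Zfhx3 sub-cluster, and was at 12.8 ± 1.78 CPM in the Zfp804b and 70.9 ± 27.6 CPM in the Hs6st3 sub-cluster. Without the Zfhx3 sub-cluster, which also had the highest Pde10a and Prkg1, the adjusted p was 4.89e-05 for Pde3a, 9.60e-05 for Pde10a and 2.00e-12 for Prkg1. Pde7b ran from 69.8 ± 27 CPM (Prox1) to 197 ± 67.4 CPM (Crhr1), with adjusted p = 0.00348, and its call was lost without the Zfp804b and Prox1 sub-clusters (0.128). Pde10a was lowest in the Crhr1 sub-cluster (278 ± 34.6 CPM) and highest in the Zfhx3 sub-cluster at 1456, 566, 709.6 and 1596 CPM, where the values spread widely (adjusted p = 6.02e-07). Pde4b ran from 168 ± 68 CPM (Zfp804b) to 574 ± 172 CPM (Kynu). Adcy7 was at 3.07 ± 3.65 CPM in the Crhr1 and 59.3 ± 33.9 CPM in the Kynu sub-cluster, and Adcy8 at 139 ± 75.4 CPM in the Kynu and 325 ± 61.6 CPM in the Zfhx3 sub-cluster (adjusted p = 0.00138 and 2.78e-04). The call of Pde8b (adjusted p = 0.00876) was lost without Ucn3-Cre replicate 2 (0.0886) or vGluT2-Cre replicate 2 (0.0807), and without the Zfhx3 sub-cluster (0.467).

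**Figure D5:**
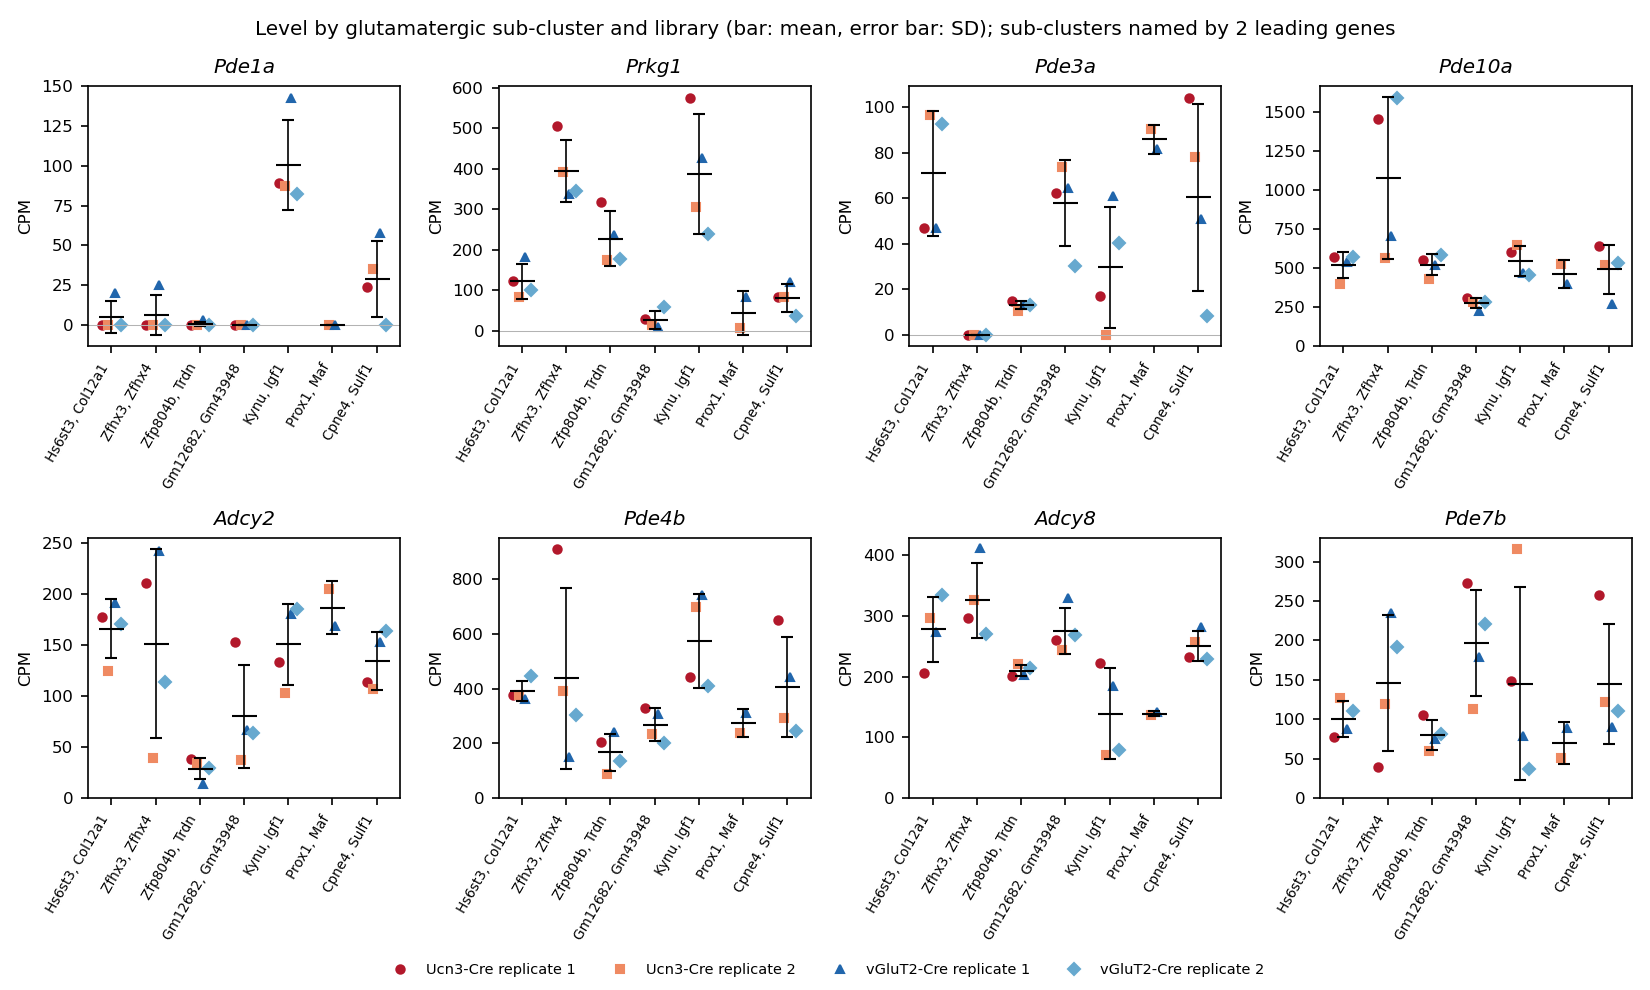
Level (CPM, linear axis) of 8 members in the 7 glutamatergic sub-clusters, each labelled by 2 leading genes; points are libraries (4, or 2 for the Prox1 sub-cluster) and the bar and error bar are mean and SD. Pde1a lies at 82.3 to 143 CPM in the Kynu sub-cluster, above all other values of that gene.

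Between the driver lines no member was called, over all nuclei or within a class. Over all nuclei edgeR called 0% of 13793 genes, with 479 genes and 1 member at an unadjusted p under 0.05, and DESeq2 called 225 genes and no member. The members' log2 differences, Ucn3-Cre minus vGluT2-Cre, ran from -0.38 to 0.45. Rapgef4os1 had the smallest p, at 32.8 and 28.1 CPM in the Ucn3-Cre and 22.4 and 22.8 CPM in the vGluT2-Cre libraries (adjusted p = 1.00, edgeR). Adcy10 was at 74.2 and 66.7 against 51.3 and 57.8 CPM and Pde3b at 46.5 and 55.4 against 76.4 and 58.1 CPM. The lines did not overlap for 9 of 43 members, against 27.1% of genes. The column names of the replicate 2 libraries of both lines share a number whose meaning is not given in the sources used here, and these libraries correlated at 0.994. Line and age cannot be told apart here, and neither can the extraction of Ucn3-Cre replicate 1 and that library.

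Within classes, 293 tests of members gave no call, 3 of them with an unadjusted p under 0.05, while 13 calls were made over all genes: 0.127% of genes in microglia, 0.0478% in precursors and 0% in each of the other 7 classes. The 3 were Pde3a in mural cells (703 and 519 against 393 and 361 CPM), Adcy9 in mural cells (345 and 337 against 206 and 202 CPM) and Pde1a in precursors (28.9 and 17.4 against 38.6 and 45.7 CPM). The lines did not overlap in these, and the adjusted p-values from edgeR were 0.999, 0.999 and 1.00.

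Between the sexes, with 2 female and 2 male libraries, edgeR called 0% of 13793 genes, with 445 genes and no member at an unadjusted p under 0.05, and DESeq2 called 186 genes and no member. The members' log2 differences, female minus male, ran from -0.44 to 0.53. Pde4b had the smallest p, at 3790.4 and 3614 CPM in the female and 3167 and 3472 CPM in the male libraries (adjusted p = 1.00, edgeR). Pde9a was at 39.6 and 30.8 against 28.1 and 25.8 CPM and Adcy9 at 110.1 and 114 against 101 and 104 CPM. The sexes did not overlap for 19 of 43 members, against 30.8% of genes.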

How the data were processed

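Single-nucleus RNA of 4 libraries was counted per gene and nucleus with Cell Ranger 3.1.0 on mm10 and handled with Seurat 3.2, per the submitters' processing notes; strand and intron settings are not given in the sources used here. The deposited values are expected counts that need not be whole: 55.2 to 77.1% of those above 0 lie within 0.1 below a whole number, and the step that made them so is not given. The members and lists were chosen with earlier results of these data known.

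All 21494 nuclei passed filters of 200 genes and 5% mitochondrial counts, and 947 likely doublets were removed by a simulated-doublet score at 0.8% for each 1000 nuclei, since the automatic threshold marked 58 (0.270%). Nuclei were clustered in scanpy 1.11.5 (2000 genes, 30 components, 15 neighbours, Leiden resolution 1, 19 clusters) without members and pathway genes, and named by a mean marker score of at least 0.3. Neurons were sub-clustered with 1000 genes, 15 components and resolution 0.5. Counts were summed per library and class (at least 20 nuclei) or sub-cluster (at least 5), rounded, filtered with filterByExpr, scaled by TMM and tested with edgeR 4.0.16 in R 4.3.3, with the library as a block for classes and sub-clusters and Benjamini-Hochberg adjustment. DESeq2 1.42.0, RLE scaling, no filter, other cluster and doublet settings and leaving out each library were alternatives. The fits were tested on simulated data. Named genes are those with the largest called fold changes with the same direction in all 4 libraries (8 each way, at least 10 CPM), the 4 largest per class (at least 20 CPM), the 8 most uneven called per kind of sub-cluster, the 3 smallest p for line and sex, and textbook genes of the pathway; others were chosen after their values were seen. Same-numbered libraries of the lines deviated from their line's mean with a correlation of 0.135 over 11308 genes; with 2 pairs the numbers were not taken to pair them. A number in the column names is shared by the replicate 2 libraries and not by the replicate 1 libraries, and its meaning is not given in the sources used here.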

Additional observations from a re-analysis of the deposited data

Results flagged for a closer look

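In 6 of 76 groups of 4 libraries, the highest or lowest library lay far from the other 3; chance gives about 1 in 20 such groups. Ucn3-Cre replicate 2 was low for Pde1a in endothelial cells (29.3 CPM against 53.4 to 56 CPM), for Adcy2 in glutamatergic neurons (85.3 CPM against 114 to 118 CPM) and for Adcy8 in inhibitory neurons (313 CPM against 341 to 342 CPM). The same library was high for Adcy7 in molecular layer interneurons (109 CPM against 29.9 to 42.2 CPM) and for Adcy2 in inhibitory neurons (70.7 CPM against 65.5 to 66.2 CPM). Ucn3-Cre replicate 1 was high for Pde7b in inhibitory neurons (28.1 CPM against 12.7 to 15.1 CPM).

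The glutamatergic minus inhibitory log2 difference of Gucy1b1 was below 0 in both Ucn3-Cre libraries (mean -0.24) and above 0 in both vGluT2-Cre libraries (mean 0.07). The lines thus differed by -0.32, and this difference was not tested.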

How the results depend on the processing

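Over all alternatives run, members called numbered 41 to 43 across classes and 13 to 27 between glutamatergic and inhibitory neurons. They numbered 8 to 15 across glutamatergic and 17 to 26 across inhibitory sub-clusters, and 0 between lines and sexes. The genes tested and called over all genes can change with the setting too. These ranges and the counts below are therefore no result about the members. Without the library block 13 of 42 members were called between glutamatergic and inhibitory neurons, beside 1728 of 10657 genes. Leaving out 1 library gave 19 to 24 members there, 8 to 12 across glutamatergic and 18 to 24 across inhibitory sub-clusters. With the replicate number as a block, 0 members were called between the lines or sexes, and 0 with the crossed pairing. Each single-gene result was counted once for every setting. By this count 1169 stayed the same, 38 lost their call and 17 changed sign, none of the sign changes past the threshold. Gucy1b1 accounted for 12 of the sign changes, and Prkacb for 9 and Pde4b for 7 of the lost calls. The cause was not tested. Including the sub-clusters that had been set aside gave -0.357 for Pde1c, -0.0733 for Pde4b (a call lost), 0.0289 for Pde5a, 0.0267 for Gucy1a1 and -0.011 for Gucy1b1. Leaving out 1 library gave -0.185 to 0.0226 for Gucy1a1, the highest without Ucn3-Cre replicate 2, and -0.0809 to 0.126 for Gucy1b1. Gucy1b1, at 0.000928 as reported, was at -0.00193 with no filter, -0.0244 with values rounded up, -0.00726, -0.0572 and -0.0809 without Ucn3-Cre replicate 1, vGluT2-Cre replicate 1 or vGluT2-Cre replicate 2, -0.0103 at Leiden resolution 2, -0.0209 with likely doublets kept, -0.0103 with at least 1000 genes per nucleus, -0.013 with the nuclei of the authors' glutamatergic table, -0.142 without the 3 sub-clusters that held a marker of another class, and -0.00559 without the Zfhx3 sub-cluster. The crossed pairing, the authors' table, the set-aside sub-clusters, the omission of further sub-clusters and the unnamed oligodendrocyte-scored clusters were alternatives chosen after seeing the data. The mural class, with 23 nuclei in its smallest library, limits the precision of mural levels.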

Other observations

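The 2 oligodendrocyte-scored clusters left without a name were led by Piezo2 and by Enpp6. Pde4b was at 5237 ± 464 CPM in the Piezo2 and 6489.5 ± 557 CPM in the Enpp6 cluster, against 9046 ± 749.5 CPM in oligodendrocytes, and Pde8a at 259 ± 19.6 and 473 ± 34 CPM against 818 ± 46.2 CPM. Rapgef5 ran the other way, at 401 ± 8.61 and 249 ± 32.3 CPM against 37.1 ± 6.29 CPM, as did Rapgef4, at 109.9 ± 13.2 and 38.4 ± 3.89 CPM against 7.42 ± 1.57 CPM. Rapgef3 was at 3.18 ± 2.25 and 5.42 ± 3.49 CPM, against 78 ± 14.4 CPM in oligodendrocytes. For Pde4b, Pde8a, Rapgef5, Rapgef4 and Rapgef3 the libraries of these clusters did not overlap those of the oligodendrocyte class, which is a description, since the clusters were cut from the same nuclei.

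Fibroblast-like nuclei, 17 to 22 in a library, held Pde1a at 839.8, 372, 241 and 422 CPM and Adcy5 at 355, 166, 220.0 and 427 CPM. All of these lay above the highest mean among the 9 classes, 216 ± 90.9 CPM for Pde1a (mural cells) and 144 ± 34.4 CPM for Adcy5 (molecular layer interneurons). The single libraries of those classes overlapped the fibroblast values for both genes.

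Some genes of the symbol rule were listed at 0 in single libraries while others held them. Adcy4 measured 82.5, 72.8, 0 and 55.9 CPM in endothelial cells, Pde4c 64.1, 0, 322 and 78.6 CPM in mural cells and Pde1b 51.7, 43.8, 76.2 and 0 CPM in microglia. Over all nuclei, 1368 of 15632 genes were listed at 0 in exactly 1 library.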
